A study of Mus musculus with 8 samples.

Results

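miR-708 is a microRNA made from a hairpin inside an intron of Tenm4, the gene of the large transmembrane protein teneurin-4. Its entries are mmu-miR-708-5p and mmu-miR-708-3p, the mature products of the 5′ and 3′ arm of that hairpin, called miR-708-5p and miR-708-3p from here on. They make up 2 of the 1418 entries in the deposited small RNA table, which covers 1281 mature miRNAs. The pair was chosen by its levels in these same libraries, so the levels, differences and arm ratios of miR-708 are given as descriptions with no p-value. Tests are given only for miRNAs that the choice did not rest on.

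Small RNA was sequenced from 8 mouse libraries. Of these, 5 came from MC3T3-E1 subclone 4, a clonal pre-osteoblast line derived from mouse skull, with the strain given as C57BL/6 and the passage as 10 to 15. One library represented undifferentiated cells at day 0, and the others cells whose titles give days 6, 10, 17 and 24 of differentiation, which was induced with ascorbic acid and β-glycerol phosphate. The table's column names give days 3 lower throughout, and those of the 4 later days, but not of day 0, also carry the tag veh. What the tag means and which count of days starts with the osteogenic medium are not stated, so what the tag stands for and the later days cannot be told apart. Each MC3T3 library pooled equal RNA from 3 biological samples, so a day has 1 library and no replicate. The other 3 libraries were calvaria, the parietal and frontal skull bones of female C57/B6 mice aged 2 to 3 days. These mice carried Prrx1-Cre, a recombinase transgene driven by an enhancer active in limb and part of the skull mesenchyme, and the bones were briefly digested with collagenase and trypsin before freezing. Whether each calvaria library stands for its own animal is not stated, so any p-value measures the spread between these libraries only, and part of that spread may be technical.

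A miRNA hairpin is cut by Drosha in the nucleus and Dicer in the cytoplasm, which leaves a short duplex of both arms. One strand is loaded into an Argonaute protein and the other is usually degraded, so most hairpins leave far more of one arm than of the other. The loaded strand recognises mRNAs mainly through its seed, bases 2 to 8 from the 5′ end. In other mouse cells miR-708 is known as a miRNA that the stress factor CHOP induces together with Tenm4 during endoplasmic reticulum stress, and secretory cells such as osteoblasts carry a heavy load of protein folding in that compartment.

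The sequences of both arms and of their closest relatives in the miR-28 family are shown because they decide which miRNAs share a target code with miR-708. They are taken from RefSeq (GRCm38.p6) and written 5′ to 3′ with the seed in capitals.
miR-708-5p: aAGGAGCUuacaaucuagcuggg
miR-28a-5p: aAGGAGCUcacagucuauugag
miR-28b: aGGAGCUCacaaucuauuuag
miR-708-3p: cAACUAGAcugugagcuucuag
miR-28a-3p: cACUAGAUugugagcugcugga
Among 1679 mature mouse names in the RefSeq table, 1 other miRNA carried the seed of miR-708-5p, namely miR-28a-5p. miR-28c, miR-151-5p and miR-151-3p were not matched in that table, so their seeds were not compared. The 5p arms of miR-708 and miR-28a were identical over their first 8 bases and at 16 of the 22 positions compared. Counting from 1 at the 5′ end of miR-708-5p, they differed by U9C, A13G, G18U, C19U, U20G and G21A. In miR-28b the same letters begin 1 base earlier, so its seed is another one. No other mature miRNA in that table carried the seed of miR-708-3p, although the 3p arms of miR-708 and miR-28a share a run of 8 bases (UGUGAGCU) that starts at base 10 of the former and base 9 of the latter. Their seeds, AACUAGA and ACUAGAU, also share the letters ACUAGA, which begin 1 base earlier in miR-28a-3p.

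In GRCm38, the build of the mm10 assembly named in the submitters' notes, Mir708 (ENSMUSG00000076143.1) occupies chr7:96249424-96249532 on the plus strand, within Tenm4 (ENSMUSG00000048078.16, chr7:96171246-96911093, same strand). The precursor is 109 bases long, with miR-708-5p at chr7:96249450-96249472, miR-708-3p at chr7:96249496-96249517 and 23 bases between them. It lies in intron 1 of all 7 annotated Tenm4 transcripts that span it, between 37753 and 78178 bases from their starts, and 105824 bases before the next exon. The nearest other miRNA gene, Mir6394, lies 56135 bases further along on the same strand. miR-6394 had 0 counts in all 8 libraries, which allows up to 0.177 RPM over the MC3T3 libraries and 0.659 RPM over the calvaria libraries.

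The libraries held 1183011 to 4031962 counts assigned to miRNAs. Levels are in RPM, the count divided by the library total and scaled alike in all libraries, and an interval beside a level is a 95% exact Poisson interval that covers counting error only, since the reads carry no molecular identifiers. miR-21a-5p alone took 45.55% of the counts at day 0, 11.23% to 20.14% at later days and 5.408% to 9.74% in calvaria, which lowers the RPM of every other miRNA at day 0. The 3 calvaria libraries were not repeats of 1 library, and calvaria 3 stood apart from the other two (Spearman's rho across miRNAs 0.974 and 0.978, against 0.99 between calvaria 1 and 2). Summed RPM of the mesenchymal marker list was 130500 to 191000 in MC3T3 and 133900 to 148200 in calvaria, so both materials carried miRNAs of this list. The sum does not identify a cell type.

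miR-708-5p was abundant in MC3T3 cells and on average 14.4 times lower in calvaria. Undifferentiated cells had 616.33 RPM (592.3 to 641.0). Day 6 had 2365.99 RPM (2313 to 2420), day 10 had 3211.67 (3149 to 3275), day 17 had 4191.48 (4128 to 4256) and day 24 had 3224.95 (3158 to 3293). In calvaria it was 201.18 RPM (176.4 to 228.4), 197.72 (178.8 to 218.1) and 167.5 (146.3 to 190.9). Day 0 was the lowest and day 17 the highest MC3T3 library, and every MC3T3 library lay above every calvaria library. In the order of levels, the intervals of days 10 and 24 overlapped, as did those of neighbouring calvaria libraries, while days 17, 6 and 0 were each separated from their neighbours beyond counting error.

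miR-708-3p, the other arm of the duplex, was about as abundant. Undifferentiated cells had 828.38 RPM (800.5 to 857.0). Day 6 had 2221.49 RPM (2170 to 2274), day 10 had 3182.68 (3120 to 3246), day 17 had 3700.41 (3641 to 3761) and day 24 had 3781.77 (3709 to 3855). In calvaria it was 257.82 RPM (229.7 to 288.4), 250.61 (229.3 to 273.4) and 344.67 (314.0 to 377.5). Day 24 was the highest library and day 0 the lowest of MC3T3, and again no calvaria library reached an MC3T3 library. Days 17 and 24 overlapped within counting error, as did calvaria 1 and 2, and calvaria 3 lay above both.

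**Figure D1:**
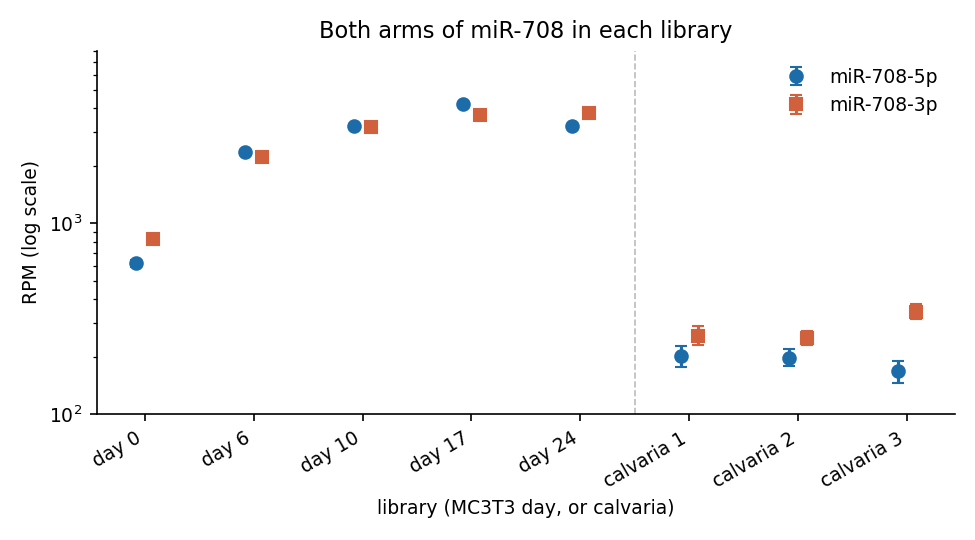
Level of miR-708-5p (circles) and miR-708-3p (squares) in each library, in RPM on a log scale, with 95% Poisson intervals that cover counting error only (smaller than the symbol in MC3T3). MC3T3 libraries lie between 616.33 and 4191.48 RPM, and calvaria libraries between 167.5 and 344.67 RPM.

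Between the materials, miR-708-5p averaged 2722 ± 1340 RPM in MC3T3 (SD, n = 5 days) and 188.8 ± 18.5 RPM in calvaria (SD, n = 3), a ratio of 14.4. miR-708-3p averaged 2743 ± 1240 RPM in MC3T3 (SD, n = 5) and 284.4 ± 52.3 RPM in calvaria (SD, n = 3), a ratio of 9.65. The MC3T3 spread is a spread over days of differentiation, not between replicates. The lowest MC3T3 library, day 0, was still 3.06 times the highest calvaria library for the 5p arm and 2.4 times for the 3p arm in RPM. With miR-21a-5p left out of the totals these ratios were 5.23 and 3.98, so the size of the day 0 gap depended on scaling. Against the calvaria mean in RPM, where the miR-21a-5p share lowers day 0, miR-708-5p was 3.26 times higher at day 0. It was 12.5 times higher at day 6, 17.0 at day 10, 22.2 at day 17 and 17.1 at day 24. The same ratios for miR-708-3p were 2.91, 7.81, 11.2, 13.0 and 13.3, so the gap to bone tissue was smallest in undifferentiated cells for both arms.

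In a fit over all 551 entries with at least 10 counts in 3 or more libraries (edgeR's quasi-likelihood model with TMM scaling), the log2 difference of calvaria from MC3T3 was -3.93 ± 0.50 (SE) for miR-708-5p and -3.36 ± 0.44 (SE) for miR-708-3p. In that fit 33.8% of entries were lower in calvaria and 32.7% higher at an adjusted p under 0.05, and the median log2 difference over all entries was -0.133. Nothing is read from these shares for miR-708, whose levels entered its choice. The split depended on scaling: 180 entries were higher and 186 lower with TMM, 216 and 128 with DESeq2 size factors, and 143 and 251 with upper quartile factors. Without calvaria 3 the difference was -3.707 for miR-708-5p and -3.384 for miR-708-3p.

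Calvaria is a tissue of many cell types, and fewer cells of a type cannot be told apart from less RNA per cell in these bulk libraries. Lists of marker miRNAs were summed as a rough view of this mixture. The sums do not measure shares of cell types, since the clonal MC3T3 line also carried cartilage, nervous system and muscle markers. The 2 endothelial markers summed to 6.2 to 19.01 RPM in MC3T3 and 9028 to 20320 RPM in calvaria, and both had at least 10 counts in a calvaria library. The 4 cartilage markers summed to 18220 to 28780 RPM in MC3T3 and 61230 to 111600 RPM in calvaria. The 6 leukocyte markers summed to 14.73 to 37.94 RPM in MC3T3 and 290.8 to 398.3 RPM in calvaria, and the 4 erythroid markers to 37.7 to 107.4 and 161.0 to 286.6 RPM. The 7 epithelial markers reached 12.39 RPM in MC3T3 and 82.01 RPM in calvaria. Nervous system and striated muscle lists, of 6 markers each, ranged from 337.3 to 463.6 and from 212.6 to 574.4 RPM in MC3T3, and from 616.2 to 698.0 and from 283.3 to 642.4 RPM in calvaria. Of these lists, 3 of the 7 epithelial, 4 of the 6 nervous system and 3 of the 6 muscle markers had at least 10 counts in a calvaria library. miR-124-3p, miR-144-5p, miR-208b-3p and miR-429-3p were at 0 in every MC3T3 library. The part of these cell types in the lower miR-708 level of calvaria was not tested.

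Among mature miRNAs ranked by mean RPM in MC3T3, both arms stood side by side at ranks 42 (3p) and 43 (5p). The miRNA above them was miR-191-5p with 2748 ± 476 RPM and the one below miR-101b-3p with 2640 ± 439 RPM (SD, n = 5). Neighbours in rank have close means by construction, so nothing is read from their closeness. In calvaria miR-708-3p ranked 130 and miR-708-5p 148. The 3p arm stood between miR-136-5p (294.6 ± 76.6 RPM) and miR-494-3p (283.5 ± 129 RPM), and the 5p arm between miR-99b-3p (191.9 ± 26.2 RPM) and miR-483-5p (188.1 ± 7.89 RPM; SD, n = 3). By library, miR-708-5p stood at rank 66 at day 0, at 35 on day 17 and at 145 to 160 in calvaria. Of the 66 miRNAs above 1000 RPM in MC3T3, only miR-31-5p (136 times), miR-10a-5p (47.9 times) and miR-34c-5p (31.0 times) had a higher ratio of mean RPM over calvaria than the miR-708 arms, and the next below was miR-29a-3p at 5.08. This set was cut on the MC3T3 level, and miR-708 was chosen by its levels, so its place in the order is a description only.

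**Figure D2:**
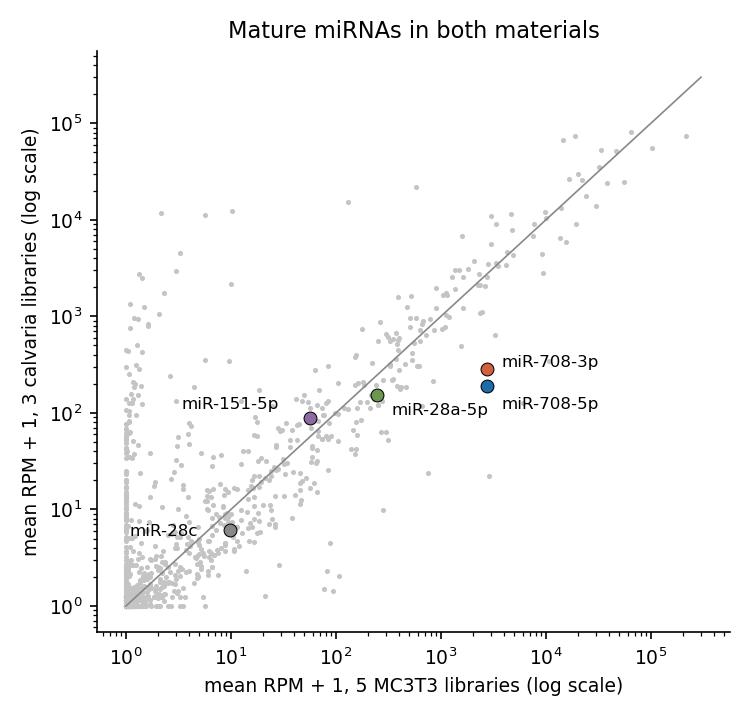
Mean level of each mature miRNA in the 5 MC3T3 libraries (x axis) against the 3 calvaria libraries (y axis), in RPM + 1 on log scales, with equal levels on the line. Both miR-708 arms (2722 and 2743 RPM in MC3T3) lie below the line, while miR-28a-5p, miR-28c and miR-151-5p lie closer to it.

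Both arms stood higher at every later day than at day 0. From day 0 to day 6 the RPM of miR-708-5p grew 3.84-fold (95% counting interval 3.67 to 4.02) and that of miR-708-3p 2.68-fold (2.57 to 2.8). On the TMM scale, which rescales every library (by factors of 0.7282 at day 0 and 1.258 at day 6), the same steps were 2.22-fold and 1.55-fold. With only miR-21a-5p left out of the totals they were 2.62-fold and 1.83-fold. From day 6 to day 10 the arms moved 1.36-fold (1.32 to 1.40) and 1.43-fold (1.39 to 1.48) in RPM, and 1.65-fold and 1.74-fold on the TMM scale. Without miR-21a-5p this step was 1.34-fold and 1.41-fold. Thus the first step was the larger for the 5p arm on every scale. For the 3p arm it was the larger in RPM, with or without miR-21a-5p, and the smaller on the TMM scale. Their RPM moved 1.31-fold (1.27 to 1.34) and 1.16-fold (1.13 to 1.19) from day 10 to day 17, with TMM ratios of 1.27 and 1.13. In the last step they parted: the 5p arm went to 0.769 times its day 17 level (0.75 to 0.79) and the 3p arm to 1.02 times (0.996 to 1.05), with TMM ratios of 0.837 and 1.11. These intervals hold no variation between cultures. Over all 469 entries of the day fit the log2 steps on the TMM scale had SDs of 0.944, 0.445, 0.489 and 0.363. In the steps to days 6, 10, 17 and 24, 8.1%, 3.84%, 18.8% and 78.5% of entries had a higher TMM ratio than miR-708-5p. For miR-708-3p these shares were 20.3%, 2.13%, 35.4% and 26.4%.

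From day 0 to day 24 miR-708-5p stood 5.23-fold higher in RPM (5.0 to 5.47) and miR-708-3p 4.57-fold (4.39 to 4.75). With miR-21a-5p left out of the totals these ratios were 3.27 and 2.86, and on the TMM scale 3.88 and 3.38. Both directions held, and the sizes depended on how the day 0 library was scaled. A straight line in day over the 5 MC3T3 libraries gave a log2 change over 24 days of 1.92 ± 0.60 (SE) for miR-708-5p and 1.75 ± 0.44 (SE) for miR-708-3p, with a median of -0.117 over all entries. In that fit 1.28% of entries rose and 1.71% fell at an adjusted p under 0.05, and nothing is read from these shares for miR-708. Without day 0 the line gave 0.9385 and 1.237, and without day 24 it gave 3.198 and 2.435.

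The balance of the arms was close to even in 7 of the 8 libraries, and calvaria 3 leaned to the 3p arm. The 5p arm made up 42.66% of the counts of both arms at day 0 (95% exact binomial interval 41.39 to 43.94), 51.58% (50.76 to 52.39) at day 6, 50.23% (49.53 to 50.92) at day 10, 53.11% (52.55 to 53.67) at day 17 and 46.03% (45.32 to 46.73) at day 24. In calvaria it made up 43.83% (39.61 to 48.12), 44.10% (40.84 to 47.4) and 32.7% (29.21 to 36.35). The 5p arm was ahead at days 6, 10 and 17, with an interval at day 10 that includes an even split, and the 3p arm in the other 5 libraries. Calvaria 3 had the lowest 5p share of all, and the shares of calvaria 1 and 2 overlapped with that of day 0.

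Such an even split was uncommon. Across 89 hairpins with 1 entry per arm and at least 100 counts in every library, the mean absolute log2 ratio of 5p over 3p had a median of 5.9, and miR-708 had 0.335, the 4th most even. Only 9 of the 89 were under 1. In 79 of them (88.8%) the same arm was ahead in all 8 libraries, and miR-708 was among the 10 where it was not. Its ratio ranged over 1.22 log2 units across libraries, less than the median range of 1.71. The drop of the 5p share in calvaria 3 was a log2 difference of -0.69 from the mean of calvaria 1 and 2, where the median hairpin differed by -0.146 (SD 0.985) and 18 of 89 differed by more in that direction. The relative miR-28a was even more balanced (0.218), with a 5p share between 46.94% and 61.65%, whereas miR-151 was strongly tilted to its 3p arm (3.15), with a 5p share between 5.79% and 17.55%.

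**Figure D3:**
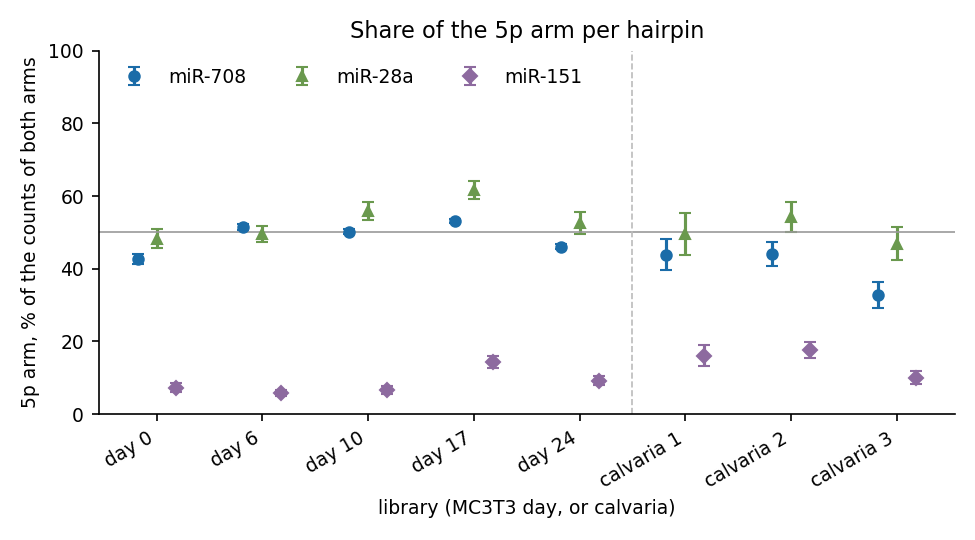
Share of the 5p arm in the counts of both arms, in percent, for miR-708 (circles), miR-28a (triangles) and miR-151 (diamonds) in each library, with 95% exact binomial intervals that cover counting error only and a line at an even split. miR-708 stays between 32.7% and 53.11%, and miR-151 between 5.79% and 17.55%.

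miR-28a-5p, the miRNA with the same seed, comes from an intron of Lpp, the gene of a protein of focal adhesions. It was present at 177.95, 318.65, 277.17, 253.4 and 205.84 RPM at days 0 to 24 and at 130.6, 159.66 and 171.22 RPM in calvaria. In RPM its highest library was day 6, and the lowest MC3T3 library, day 0, lay just above the highest calvaria library. On the TMM scale its highest library was day 10 (280.3, against 263.5 at day 6). There the lowest MC3T3 library was day 24 (215.8), above the highest calvaria library (164.5). miR-28a-5p was lower in calvaria by a log2 difference of -0.80 ± 0.20 (SE; edgeR adjusted p = 0.00547). This call was lost with DESeq2 size factors (edgeR adjusted p = 0.0514), with library totals (0.0554) and without calvaria 1 (0.0799). Its day trend was -0.24 ± 0.36 over 24 days (edgeR adjusted p = 0.709), where miR-708-5p had 1.92 ± 0.60. The difference between these trends was not tested.

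Because they share a seed, miR-708-5p and miR-28a-5p were added up. The sum was 794.3 RPM at day 0, 2685 at day 6, 3489 at day 10, 4445 at day 17 and 3431 at day 24, and 331.8, 357.4 and 338.7 RPM in calvaria. miR-708-5p supplied 77.6% of it at day 0 (95% exact binomial interval 76.1 to 79.02). Its share was 88.13% on day 6, 92.06% on day 10, 94.3% on day 17 and 94.0% on day 24. In calvaria it supplied 60.64% (55.69 to 65.58), 55.33% (51.62 to 58.99) and 49.45% (44.76 to 54.15). The mean sum was 2969 ± 1370 RPM in MC3T3 (SD, n = 5) and 342.6 ± 13.2 RPM in calvaria (SD, n = 3), and the mean share of miR-708-5p was 89.22 ± 6.95% and 55.14 ± 5.6%. In each MC3T3 library miR-708-5p was the larger part of the sum, and in calvaria both miRNAs had shares of similar size.

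**Figure D4:**
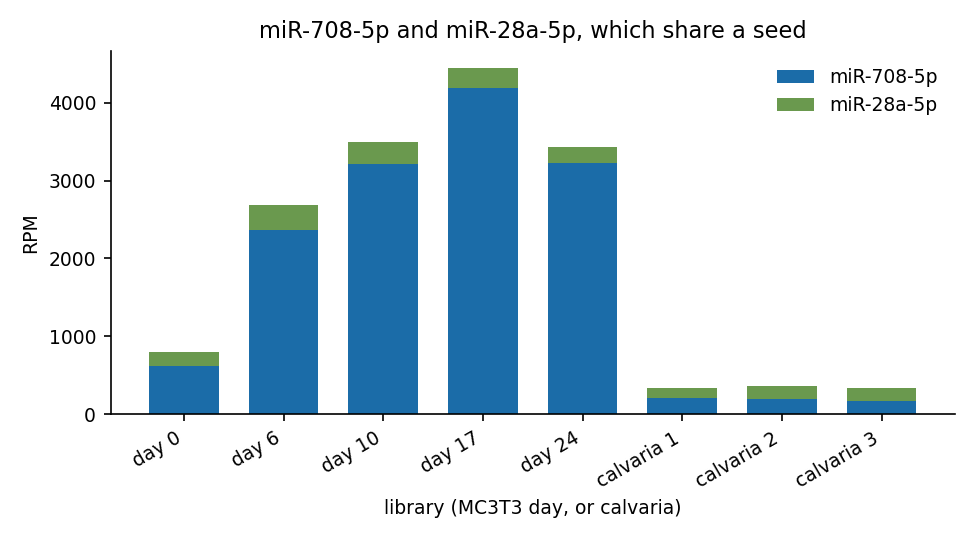
Level of miR-708-5p (lower part of each bar) and miR-28a-5p (upper part), which carry the same seed, in RPM per library. The sum is between 794.3 and 4445 RPM in MC3T3 and between 331.8 and 357.4 RPM in calvaria.

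The other members of the miR-28 family were scarcer than miR-708 in MC3T3. Of the 6 listed relatives, 5 passed the filter on low counts: 0 were called higher and 2 lower in calvaria, beside 32.7% and 33.8% over all entries. Only the share called lower was near its background, and with 5 entries nothing is read from either share. The median log2 difference of these 5 was -0.617, beside -0.133 over all entries. It includes miR-28c, whose passing of the filter is described below, and is not used as support. Besides miR-28a-5p the call fell on miR-28c (8.71 ± 0.914 RPM in MC3T3, n = 5, and 5.10 ± 0.742 in calvaria, n = 3, SD; log2 -0.89 ± 0.30 SE; edgeR adjusted p = 0.0237). miR-28c passed the filter through MC3T3 alone, with 23.5 to 40 counts there and 5.5 to 9.5 in calvaria, so that this call was favoured by the filter and supports nothing here. It was lost in 6 of 17 alternatives, among them the removal of any 1 calvaria library (edgeR adjusted p 0.0756 to 0.159). miR-28a-3p was at 215.3 ± 64.7 and 153.7 ± 34.5 RPM (edgeR adjusted p = 0.0608), miR-151-3p at 635.2 ± 214 and 557.3 ± 191 RPM (0.381) and miR-151-5p at 55.9 ± 14.6 and 88.35 ± 5.71 RPM (0.0504). None of these passed in the main test, whereas miR-151-5p passed in 6, miR-28a-3p in 3 and miR-151-3p in 1 of 17 alternatives. miR-28b had at most 1.5 counts in a library and was not tested. In the day trend edgeR called 0 of the 5 (adjusted p between 0.318 and 0.851), 0 had an unadjusted p under 0.05, and DESeq2 and limma also called 0. Fractional counts of miR-28a-5p, miR-28b, miR-28c and miR-151-5p show that some of their reads were divided among entries. All 8 values of both miR-708 arms were whole within 0.005 counts, as were those of miR-28a-3p and miR-151-3p.

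Tenm4 encodes a surface protein, and intronic miRNAs of other genes for surface, matrix and adhesion proteins were compared next, in a list that also held a miRNA of the growth factor gene Igf2. Of 12 listed, 11 passed the filter, in 12 entries: 6 were called higher and 1 lower in calvaria, with a median log2 difference of 0.926, beside 32.7% higher, 33.8% lower and a median of -0.133 over all entries. miR-126-5p, miR-224-5p and miR-483-5p passed through calvaria alone, with at most 5, 9 and 4 counts in an MC3T3 library, so 3 of the 6 calls were favoured by the filter, and neither the count nor the median is used as support. Those called higher were both arms of miR-126, which lies in the endothelial matrix gene Egfl7, both arms of miR-455, in the cartilage collagen gene Col27a1, miR-224-5p, in the receptor gene Gabre, and miR-483-5p, in Igf2. miR-126-3p was at 9.168 ± 4.75 RPM in MC3T3 and 12320 ± 5920 RPM in calvaria (log2 10.29 ± 0.45; edgeR adjusted p = 3.89e-08), and it is also 1 of the 2 endothelial markers above. miR-455-5p was at 3315 ± 1219 and 8986 ± 3194 RPM (log2 1.34 ± 0.31; edgeR adjusted p = 0.00374), and both its arms are also in the cartilage list. The member that was lower was miR-28a-5p. miR-149-5p, from the proteoglycan gene Gpc1, and miR-218-5p, from Slit2 and Slit3, did not pass, with mean levels of 1033 and 2375 RPM in MC3T3 and 732.5 and 2089 RPM in calvaria. In the day trend edgeR called 0 of 9 entries, 0 had an unadjusted p under 0.05, DESeq2 and limma called 0, and the median log2 change was 0.74. Across alternatives 0 to 3 of them rose and 0 to 1 fell.

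miRNAs linked to the unfolded protein response, the program under which miR-708 was described, were also compared. Of 10 listed, 8 passed the filter, in 9 entries: 1 was called higher and 3 lower in calvaria, beside 32.7% and 33.8% over all entries. The share called lower was thus near the background, and 2 of these 3 entries belong to the same miRNA. The median log2 difference was -1.06, beside -0.133 over all entries, but it was -0.6617 without day 0 and -0.2933 with no filter. Some listed miRNAs are repressed under that program, whereas miR-708 is induced, so no direction is read from this median. The lower ones were miR-34a-5p, which falls under that program and is also a p53 target (301.5 ± 76.3 RPM in MC3T3, n = 5, and 62.93 ± 10.6 in calvaria, n = 3, SD; log2 -2.38 ± 0.23; edgeR adjusted p = 9.89e-06), and both entries of miR-125b-5p (13760 ± 3866 and 6419 ± 782 RPM; log2 -1.24 and -1.21; edgeR adjusted p = 0.000422 and 0.000555). miR-17-5p was higher, at 369.7 ± 188 and 674.7 ± 21.7 RPM (log2 0.77 ± 0.30; edgeR adjusted p = 0.0423), a call lost in 10 of 17 alternatives. miR-25-3p, miR-93-5p and miR-106b-5p, of the cluster repressed by the stress kinase PERK, did not pass (edgeR adjusted p 0.0562, 0.437 and 0.353), although the first did in 7 of 17 alternatives. miR-30c-2-3p (log2 -1.33 ± 0.54, edgeR adjusted p = 0.0506) and miR-96-5p (log2 -1.06 ± 0.45, edgeR adjusted p = 0.0627) did not pass either. They passed in 7 and 5 of 17 alternatives. In the day trend edgeR called 0 of 9 entries, 2 had an unadjusted p under 0.05 (both falling), DESeq2 and limma called 0, and the median log2 change was -0.522. Across alternatives 0 rose and 0 to 2 fell: miR-17-5p and miR-93-5p without day 0, and miR-30c-2-3p without day 24 or with log2(day + 1).

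The profiles most like that of miR-708-5p were ranked by Pearson's r of log2(RPM + 1), as a description. Over all 8 libraries and 469 miRNAs the highest were miR-193b-3p (0.992), miR-669c-5p (0.991), miR-708-3p (0.991), miR-297b-5p (0.98) and let-7b-5p (0.979). These points share the contrast of cell line and tissue and the low day 0 level. The ranking was made in RPM, where miR-21a-5p, with 45.55% of the counts at day 0, lowers every other miRNA in that library. miR-193b-3p had 151.54 RPM at day 0, 437.9 RPM on day 17 and 40.94 to 60.8 RPM in calvaria. The same rank order of day 0, day 17 and calvaria was seen for let-7b-5p, with 5906.07, 11693.1 and 3733.67 to 4824.76 RPM. Over the 5 MC3T3 libraries and 365 miRNAs the highest were miR-574-3p (0.999), miR-378c (0.998), miR-378a-3p (0.997), miR-365-3p (0.996) and let-7g-5p (0.994). Here too a low day 0 RPM shared through scaling can raise r, and no ranking without miR-21a-5p was made. miR-708-3p, from the same hairpin, came 14th there with 0.986, and miR-28a-5p, with the same seed, came 174th with 0.607.

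**Figure D5:**
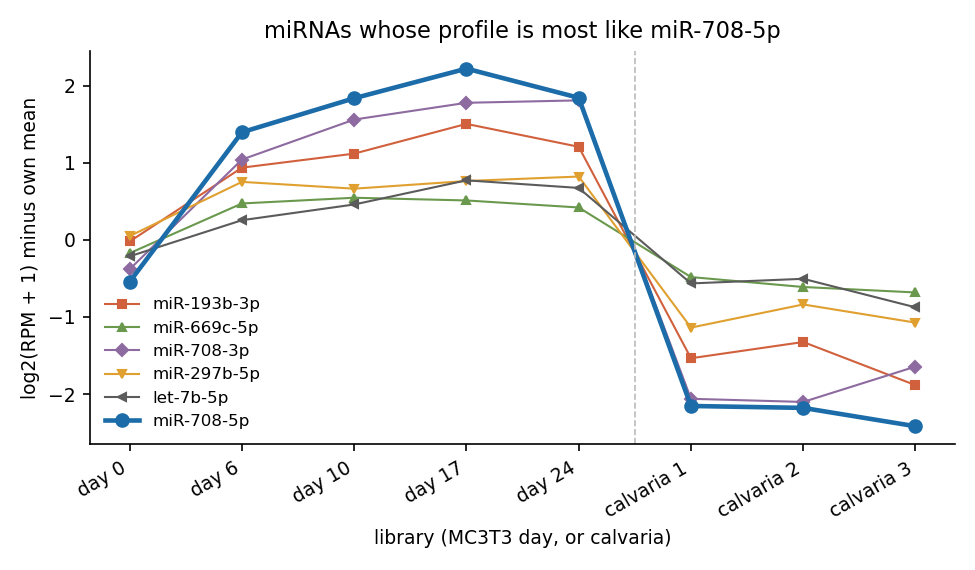
Profile of miR-708-5p (thick line) and of the 5 miRNAs with the highest Pearson's r to it over 8 libraries (r between 0.979 and 0.992), as log2(RPM + 1) minus the miRNA's own mean over the libraries. In RPM all 6 are lower at day 0 than at later days and lower again in calvaria, and both miR-708 arms span the widest range. The day 0 RPM of each is lowered by the miR-21a-5p share of that library, so the day 0 dip depends on this scaling.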

How the data were processed

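Small RNA libraries (NEBNext Small RNA kit, Direct-zol RNA, per the labels' protocols) were available for 5 MC3T3 time points and 3 calvaria samples. The authors deposited estimated counts per mature arm and precursor, some fractional, and RPM values, which equalled count over library total within 0.013 RPM. cutadapt 0.9.5, Bowtie 0.12.7 and mm10 are named per the submitters' processing notes; the program that counted reads and its miRNA annotation were not given in the sources used here. Column names of the MC3T3 libraries give days 3 lower than the sample titles for all 5 and were matched by that constant shift.

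Estimated counts were rounded and tested with edgeR 4.0.16 (R 4.3.3; quasi-likelihood test, TMM, Benjamini-Hochberg over all entries, threshold 0.05). Calvaria was compared with MC3T3 over entries with at least 10 counts in 3 of 8 libraries (551 entries, 6 residual degrees of freedom). The day trend was linear over 5 libraries, with 10 counts in at least 2 (469 entries, 3 residual degrees of freedom). The steps were tested on simulated data. Intervals are exact Poisson or exact binomial (scipy 1.17.1). DESeq2 1.42.0 and limma 3.58.1 served as alternatives. Genes are from GENCODE M21 and sequences from RefSeq; 5 of the names sought matched the sequence table. Named miRNAs were both arms, relatives, the 5 closest profiles over each set of libraries, called members of each list or else its 4 most abundant, and neighbours in rank. The members and lists were chosen with earlier results of these data known.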

Additional observations from a re-analysis of the deposited data

How the results depend on the processing

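No paired analysis was possible because each MC3T3 day has 1 library and the calvaria numbers follow accession order only. The calvaria difference kept its direction in all 17 alternatives run for each miR-708 arm, from -4.423 to -3.54 (5p) and -3.844 to -3.057 (3p); the day trend did in all 13, from 0.9385 to 3.198 and 1.237 to 2.435, with both ends set by leaving out day 0 or day 24. Relative to the main scaling, the median of all entries moved by -0.48 (upper quartile factors) to 0.31 (DESeq2 size factors) in the calvaria comparison. Day 24 over day 0 was 3.27 and 2.86 without miR-21a-5p and 3.88 and 3.38 with TMM; both were chosen after seeing the data.

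Entries lower in calvaria numbered 109 with DESeq2's Wald test and 117 to 199 when leaving out each library (117 without calvaria 2, 122 without calvaria 1 or 3). Entries rising with day, 6 in the main test, numbered 19 with DESeq2's Wald test, 14 with no filter and 47 with log2(day + 1); those falling, 8 in the main test, numbered 5 with library totals, 2 with limma, 20 with no filter, 5 when summed per miRNA and 56 with log2(day + 1). Leaving out each day gave 0 to 37 rising and 0 to 42 falling, the extremes coming from the fits that left out day 17 (0 and 0) or day 0 (37 and 42), with 0 and 5 when day 6 was left out and 11 and 17 when day 24 was; the filtered entries were held fixed. At an unadjusted p under 0.05, edgeR had 50 rising and 53 falling. The cause was not tested.

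In the calvaria comparison upper quartile factors moved the list medians to -1.085 (relatives), 0.4352 (surface hosts) and -1.537 (unfolded protein response). The last was -0.3673 with limma and a pseudocount of 10, -0.2933 with no filter and -0.7025 when summed; with days 17 and 24 only, the relatives were at -0.1561 and it was at -0.383. Leaving out single libraries moved the stress list to between -1.18 and -0.6617. In the day trend the surface hosts' median was 1.093 with limma, and 0.02305 to 0.8388 leaving out each day; that of the relatives was -0.8852 to -0.2268.

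The calvaria values rest on 225 to 507 counts per miR-708 arm and library.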
